A study of Mus musculus with 10 samples.

Results

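The unfolded protein response genes described here are 10 genes of the mouse endoplasmic reticulum: Hspa5, Hsp90b1, Dnajb9, Xbp1, Herpud1, Sdf2l1, Pdia4, Hyou1, Creld2 and Manf. They were chosen by name, as classical chaperones, chaperone partners and regulators of this response, and the rule used no measured value. Earlier results of these data were known when the choice was made. All 10 were on the array, through 20 probe sets that carry a single gene symbol, among 18194 genes and 34958 such probe sets in all. The brightest probe set on average stands for each gene, and all 10 passed the filter on low signal that left 12162 genes for testing.

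The cells were mouse Lewis lung carcinoma cells (LLC, strain C57BL/6), made to carry either the proton-sensing receptor TDAG8 (gene symbol Gpr65) or the empty vector, called TDAG8 cells and control cells below. Both lines were deprived of serum for 12 h at pH 7.4 and then kept at pH 6.4 or pH 7.4 for 4 h or 12 h, and each was also sampled before treatment, so that the groups were TDAG8 and control cells in each of 5 conditions. Each of the 10 Affymetrix arrays received RNA pooled in equal amounts from 4 cultures, with 1 array per line and condition. The promoter driving the transgene, and whether each line came from 1 clone, are not stated in the labels.

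Proteins that enter the secretory pathway fold in the endoplasmic reticulum with the help of chaperones, of which BiP, the product of Hspa5, is the most general. When unfolded proteins accumulate, the sensors IRE1, ATF6 and PERK are activated. IRE1 splices the Xbp1 mRNA into the form that encodes an active transcription factor, cleaved ATF6 enters the nucleus, and PERK slows translation and favours production of the transcription factor ATF4. The nuclear factors raise chaperone genes through short promoter elements, the endoplasmic reticulum stress elements ERSE and ERSE-II, and ATF4 acts through a composite site that it shares with C/EBP proteins. The array gives a relative level of each mRNA within the pooled RNA, here taken over its splice forms, so a change in Xbp1 splicing is not measured, and fewer cells cannot be told apart from less RNA per cell.

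Promoter sequences are shown for the genes whose values differed most between pH 6.4 and pH 7.4 (Herpud1, Dnajb9 and Sdf2l1) and for the chaperone genes with an ERSE match (Hspa5, Hsp90b1 and Creld2). RefSeq promoter sequences (build GRCm38.p6) were at hand for 8 of the 10 genes. In that build Herpud1 lies at chr8:94386429-94395371, Dnajb9 at chr12:44205897-44210068 and Sdf2l1 at chr16:17130138-17132383. Each sequence is the 250 bases before the annotated start of the gene, read along the gene, and capitals mark motif matches.
Herpud1 chr8:94386179-94386428, plus strand: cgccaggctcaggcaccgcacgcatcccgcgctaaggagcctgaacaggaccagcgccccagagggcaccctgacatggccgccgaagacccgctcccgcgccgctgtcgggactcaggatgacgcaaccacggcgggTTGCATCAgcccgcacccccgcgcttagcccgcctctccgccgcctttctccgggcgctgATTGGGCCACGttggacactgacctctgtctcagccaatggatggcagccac
Dnajb9 chr12:44210069-44210318, minus strand: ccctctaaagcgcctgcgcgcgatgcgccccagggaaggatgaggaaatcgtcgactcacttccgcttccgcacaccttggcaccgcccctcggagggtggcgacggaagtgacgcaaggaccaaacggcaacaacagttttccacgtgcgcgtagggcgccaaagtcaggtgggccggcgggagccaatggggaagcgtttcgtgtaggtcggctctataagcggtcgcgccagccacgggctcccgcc
Sdf2l1 chr16:17132384-17132633, minus strand: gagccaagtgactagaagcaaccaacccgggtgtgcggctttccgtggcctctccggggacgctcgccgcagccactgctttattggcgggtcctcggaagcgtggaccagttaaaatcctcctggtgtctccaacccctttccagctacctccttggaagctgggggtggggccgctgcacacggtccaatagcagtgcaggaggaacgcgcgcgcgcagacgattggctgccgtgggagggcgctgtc
Hspa5 chr2:34771840-34772089, plus strand: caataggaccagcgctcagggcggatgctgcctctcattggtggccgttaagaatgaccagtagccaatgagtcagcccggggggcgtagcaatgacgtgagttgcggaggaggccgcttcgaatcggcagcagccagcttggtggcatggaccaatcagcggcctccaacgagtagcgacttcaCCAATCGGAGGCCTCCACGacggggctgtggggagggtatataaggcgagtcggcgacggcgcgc
Hsp90b1 chr10:86705445-86705694, minus strand: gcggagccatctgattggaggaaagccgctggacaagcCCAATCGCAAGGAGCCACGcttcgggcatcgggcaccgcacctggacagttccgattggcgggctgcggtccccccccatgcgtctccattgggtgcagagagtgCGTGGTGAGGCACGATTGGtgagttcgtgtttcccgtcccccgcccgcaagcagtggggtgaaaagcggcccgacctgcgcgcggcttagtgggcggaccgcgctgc
Creld2 chr15:88819396-88819645, plus strand: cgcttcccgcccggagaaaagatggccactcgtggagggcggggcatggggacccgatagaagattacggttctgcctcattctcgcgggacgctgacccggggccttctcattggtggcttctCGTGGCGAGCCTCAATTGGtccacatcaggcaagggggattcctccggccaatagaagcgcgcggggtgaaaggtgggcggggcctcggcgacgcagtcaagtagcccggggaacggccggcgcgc

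The motifs were searched on both strands of these windows and of all 32851 RefSeq promoter windows of the same length. ERSE, spelled CCAAT and CCACG with any 9 bases between them, had a match in Hspa5, Hsp90b1 and Creld2, and in 0.113% of all windows. In Hspa5 the match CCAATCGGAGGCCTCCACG began 65 bases before the start, and Hsp90b1 held 2 matches. ERSE-II, spelled ATTGG and CCACG with any 1 base between them, matched in Herpud1 as ATTGGGCCACG, 52 bases before the start, and in 0.0304% of all windows. The core of the ATF4 composite site, spelled TTGCATCA, matched in Herpud1, 112 bases before the start, and in 0.791% of all windows. Herpud1 held the only window of the 32851 with a match to both ERSE-II and this core. Among 8 genes of the PERK and ATF4 arm with a window, Chac1 and Atf3 held the ATF4 core. The XBP1 element UPRE (TGACGTGG, 0.563% of windows) and the cAMP response element CRE (TGACGTCA, 1.55% of windows) matched in 0 of the 8 windows of the genes described here, which says only that these letters are not in them. Among the 8 windows of the PERK and ATF4 arm, CRE matched in 1, that of Ppp1r15a, and UPRE in 0.

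Signals are given below as deposited, in linear array units that have no meaning between probe sets. Differences are on the scale of log2(signal + 2.4) after quantile normalisation. They can depart from the ratio of the printed signals, and small ones can differ in sign. For Hspa5 at 4 h the printed signal was higher at pH 6.4 in both lines, while the differences were -0.10 in TDAG8 cells and -0.03 in control cells. The Gpr65 probe set read between 0.3 and 5.3 on all arrays and gave no check of the line labels. The mesenchymal markers Vim and Fn1 read between 857.8 and 9227 and of 4 epithelial markers Krt8, Krt18 and Epcam passed the filter, Epcam at only 22.1 to 45.1, while Cdh1 was at or below 5.3, whereas the 3 leukocyte markers on the array stayed at or below 9.1. Since no condition was repeated, matched pairs of arrays stood in for replicates in every test. The p-values therefore measure only the spread between pairs of pooled arrays.

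The comparison of pH 6.4 with pH 7.4 asked which of the genes differed on average over the 4 matched pairs of both lines (the shared difference). It did not test each line on its own. Herpud1 and Dnajb9 were lower at pH 6.4 in each of the 4 matched pairs, Sdf2l1 was higher in each of the 4, and the main probe sets of the large chaperones Hspa5 and Hsp90b1 differed little on average. By limma over the 4 pairs, Dnajb9 fell at pH 6.4 (log2 -0.67, SE 0.12, 1.59-fold, adjusted p = 0.0345), and the other 9 genes did not pass. Of the 10 genes 1 passed as lower and 0 as higher, against 5.56% and 4.46% of all tested genes, so their number is close to the general share. An unadjusted p under 0.05 was found for 3 of the 10 genes and for 3882 of all 12162 tested genes. Higher values made up 44.5% of all calls, or 31.9% when median centring replaced quantile normalisation. The median absolute difference was 0.13 over the 10 genes and 0.28 over all tested genes.

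**Figure D1:**
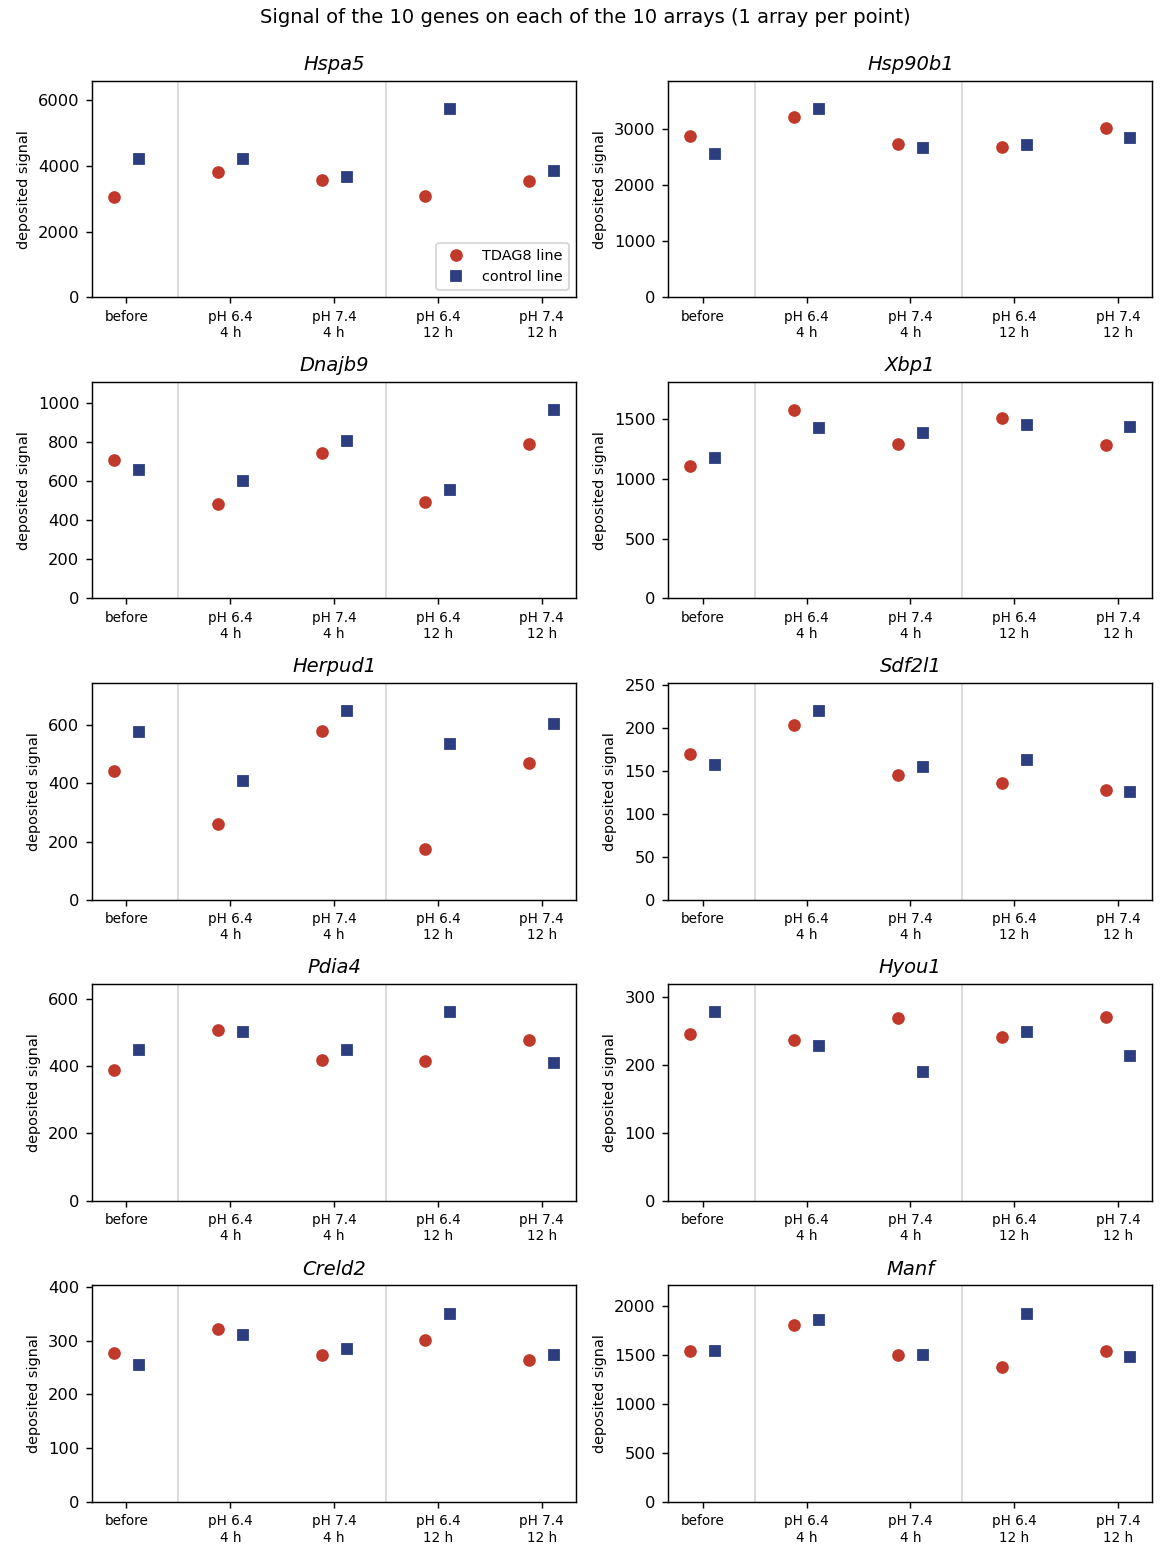
Deposited signal (linear array units, axes from 0) of the 10 genes on each array, with TDAG8 cells as red circles and control cells as blue squares, 1 array per point, so no error bars. Herpud1 read 260.2 and 173 in TDAG8 cells at pH 6.4, while Hspa5 and Hsp90b1 stayed within a narrow band in most conditions.

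Dnajb9 encodes a J-domain protein of the endoplasmic reticulum that works with BiP and is known to restrain IRE1. Its signal in acid-treated TDAG8 cells was 483 (4 h) and 494 (12 h), against 745 and 786 at pH 7.4. Control cells gave 602 and 552 at pH 6.4, against 806 and 960.2 under pH 7.4. The 4 arrays at pH 6.4 thus lay below the 4 at pH 7.4, and also below the arrays before treatment, which read 705 in TDAG8 cells and 654 in control cells. In the fit over all 10 arrays, which uses both lines at each time, Dnajb9 fell at 4 h (log2 -0.55, SE 0.13, limma adjusted p = 0.0387) and at 12 h (-0.78, SE 0.13, limma adjusted p = 0.00699). The differences of the lines were close to each other, at -0.65 and -0.44 at 4 h and -0.71 and -0.86 at 12 h in TDAG8 and control cells. The call over 4 pairs was lost without any 1 pair (adjusted p between 0.0718 and 0.117), with arrays centred on the median (0.0616) and with no filter (0.0926). The value lay between -0.74 and -0.58 in every alternative run. The 4 h call was lost with no filter (0.0978) and without the TDAG8 or the control pair (0.35 and 0.222), and the 12 h call without the TDAG8 or the control pair (0.0694 and 0.0971).

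Herpud1 encodes a membrane protein of the endoplasmic reticulum with a ubiquitin-like domain, which serves in the degradation of misfolded proteins (ERAD). Its signal in acid-treated TDAG8 cells was 260.2 (4 h) and 173 (12 h), against 581 and 469.8 at pH 7.4. In control cells it was 408 and 536 at pH 6.4, against 648 and 604 at pH 7.4. Before treatment it read 442 in TDAG8 cells and 576 in control cells. The lowest 2 values were those of TDAG8 cells at pH 6.4, and the lowest of the other 8 was 407.5. The log2 differences between pH 6.4 and pH 7.4 were -1.11 at 4 h and -1.48 at 12 h in TDAG8 cells, and -0.62 and -0.21 in control cells. The second Herpud1 probe set gave -1.47 and -1.98 in TDAG8 cells and -0.54 and -0.26 in control cells, so that both probe sets had the larger difference in TDAG8 cells at each time.

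Over the 4 pairs the Herpud1 difference was -0.85 (SE 0.23), which did not pass (limma adjusted p = 0.0716), and its 95% interval ran from -1.42 to -0.28. It passed with a stricter filter on low signal (adjusted p = 0.043) and with limma's trend and robust options (0.0303). Herpud1 was the only one of the 10 genes to be lower by 1 or more on the log2 scale between single arrays at pH 6.4 and pH 7.4, in TDAG8 cells at both times. The share of all tested genes lower by as much was 5.7% at 4 h and 7.83% at 12 h in TDAG8 cells, and 6.04% and 8.69% in control cells, where 0 of the 10 genes reached it.

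Sdf2l1 encodes a protein of the endoplasmic reticulum lumen that forms a complex with BiP co-chaperones. Its signal at 4 h was 203 in TDAG8 cells and 219 in control cells at pH 6.4, against 145 and 154 at pH 7.4. At 12 h it was 136 in TDAG8 cells and 163 in control cells at pH 6.4, against 128 and 126 at pH 7.4. The highest 2 values of the 10 arrays were the ones at pH 6.4 and 4 h. Sdf2l1 rose at 4 h (log2 0.61, SE 0.12, limma adjusted p = 0.0194), whereas its 12 h value of 0.25 did not pass (limma adjusted p = 0.149). From 4 h to 12 h in acid it fell (log2 -0.60, SE 0.12, limma adjusted p = 0.0149). The test of the change in pH response between the times did not pass (-0.36, SE 0.16, limma adjusted p = 0.2). With arrays centred on the median the 4 h rise was 0.43 and the later fall -0.38, and neither passed (adjusted p = 0.118 and 0.126). The 4 h call was also lost with no filter (0.0588) or without either line's pair (0.203 and 0.234), and the later fall without either line's pair (0.0796 and 0.0574).

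By time, 1 of the 10 genes was lower and 1 higher at 4 h, against 11.5% and 6.19% of all tested genes. At 12 h 1 was lower and 0 were higher, against 17.6% and 16.9%. Of all calls 35% were higher at 4 h and 49.1% at 12 h, which median centring changed to 17% and 60.5%. In acid from 4 h to 12 h, 1 of the 10 was lower, against 12.2% of all tested genes. In that comparison 55% of all calls were higher, or 75.2% after median centring. The comparison of the pH response between 12 h and 4 h passed in 12.1% of all genes and in 0 of the 10. Its unadjusted p was under 0.05 in 0 of the 10 and in 3755 of all 12162.

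**Figure D2:**
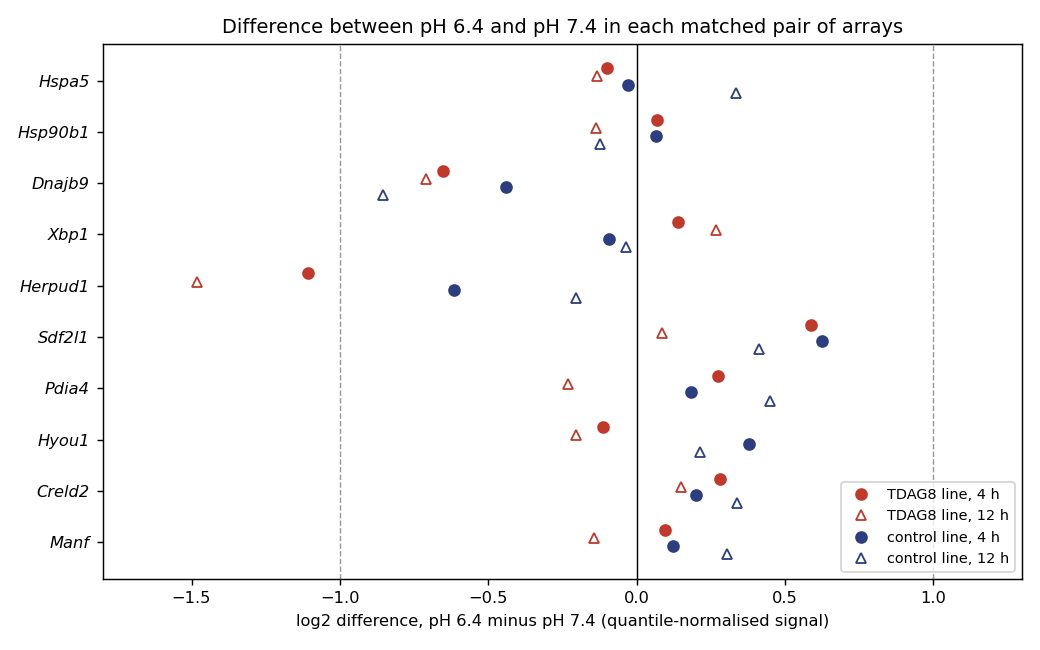
Log2 difference in quantile-normalised signal, pH 6.4 minus pH 7.4, for the 10 genes in each of the 4 matched pairs of arrays. Circles are 4 h and triangles 12 h, red is the TDAG8 line and blue the control line, and dashed lines mark a difference of 1. Dnajb9 and Herpud1 lie left of 0 in 4 of 4 pairs and Sdf2l1 right of 0 in 4 of 4.

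The main probe sets of the lumenal chaperones showed small differences. Hspa5 read 3809 and 3099 at pH 6.4 in TDAG8 cells, against 3581 and 3540.1 at pH 7.4. In control cells it read 4204 and 5731 at pH 6.4, against 3668 and 3837 at pH 7.4. Only the control array at pH 6.4 and 12 h stood clearly above the others. The shared difference was 0.02 (95% interval -0.31 to 0.34), and for Hsp90b1, the Hsp90 chaperone of the lumen, it was -0.03 (-0.31 to 0.25), with signals between 2563 and 3353 over the 10 arrays. The second Hspa5 probe set read 2997 in control cells at pH 6.4 and 12 h and 3289 at 4 h, so there the 4 h value was the higher. Before treatment the main Hspa5 probe set read 3073 in TDAG8 cells and 4228 in control cells, and the third, with 158.5 and 200.1, had the same order. The second read 2325 and 1939, so the probe sets disagreed on which line was higher. They also differed at 4 h in acid, where the third gave 0.62 (SE 0.19), with 0.35 in TDAG8 cells and 0.89 in control cells, which did not pass (limma adjusted p = 0.0817 over all probe sets), against -0.06 for the main one.

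Partners and folding enzymes of BiP differed little as well. Pdia4, a disulfide isomerase, had a shared difference of 0.17 (95% interval -0.20 to 0.54) with signals between 387 and 559.7, and its second probe set read at most 8.6 and was not tested. Hyou1, a nucleotide exchange factor for BiP, had 0.07 (-0.29 to 0.43) with signals between 189.7 and 277, and its other 2 probe sets gave 0.44 and 0.12, none passing. Creld2, a cysteine-rich protein that acts as a disulfide isomerase, read 323 and 301 at pH 6.4 in TDAG8 cells, against 273 and 264 at pH 7.4. In control cells Creld2 read 312 and 351 at pH 6.4, against 284 and 274 at pH 7.4. All 4 of its pH 6.4 arrays were above all 4 at pH 7.4, but its difference of 0.24 (SE 0.11) did not pass (limma adjusted p = 0.191). Manf, a lumenal and secreted protein that binds BiP, had 0.09 (-0.21 to 0.40), with signals between 1372 and 1919. Xbp1 had 0.07 (-0.23 to 0.37) with signals between 1114 and 1576, and its other 3 probe sets gave 0.06 to 0.28, none passing.

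The fibroblast markers (3 on the array, 2 above the filter) also moved with pH. Summed, they read 707 to 993 on the arrays at pH 6.4 and 1479 to 2929.8 on those at pH 7.4, and their part in the differences above was not tested.

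Set against control cells condition by condition, TDAG8 cells had lower Herpud1 and Hspa5 signal in each of the 5 pairs, on the normalised scale. On that scale Hsp90b1 was higher in each of the 5 pairs, and none of these differences passed the test. The smallest Hspa5 difference was -0.004, at pH 7.4 and 4 h. As deposited, the main Hsp90b1 probe set read lower in TDAG8 cells at pH 6.4 (3211 against 3353 at 4 h, and 2676 against 2716 at 12 h). Herpud1 was lower in TDAG8 cells in 5 of 5 pairs, with these log2 differences: -0.40 before treatment, -0.64 and -1.67 at pH 6.4 after 4 h and 12 h, and -0.15 and -0.39 at pH 7.4. The mean difference was -0.65 (SE 0.22) and did not pass (limma adjusted p = 0.183), and without the pair at pH 6.4 and 12 h it was -0.39. None of the 10 genes passed by limma, against 1.2% of all tested genes. An unadjusted p under 0.05 was found in 1 of the 10 and in 2525 of all 12162. The other 9 genes had mean differences between -0.16, for Hspa5, and 0.16, for Hsp90b1. Other probe sets differed in sign: for Hspa5 the second gave 0.07 and the third -0.20, and for Hsp90b1 the second gave -0.06. The summed signal of the epithelial markers was 2072 to 2856 in TDAG8 cells and 1286 to 2069 in control cells, and its part in these differences was not tested.

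At pH 6.4 and 12 h, 8 of the 10 genes were lower in TDAG8 than in control cells, with a median log2 difference of -0.28, where the median over all tested genes was 0.01. Among the chaperones Hspa5 (-0.52), Pdia4 (-0.45), Manf (-0.35), Sdf2l1 (-0.31) and Creld2 (-0.25) were lower there. Hyou1 was near 0 (-0.06), and Hsp90b1 was higher (0.145), though its second probe set was lower (-0.26). As deposited, the main Hsp90b1 probe set also read slightly lower there (2676 against 2716). At pH 6.4 and 4 h the median was 0.00, and in the other 3 conditions it lay between -0.05 and 0.03. These are differences of single arrays with no test, and they share the array of control cells at pH 6.4 and 12 h on which Hspa5 was highest.

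**Figure D3:**
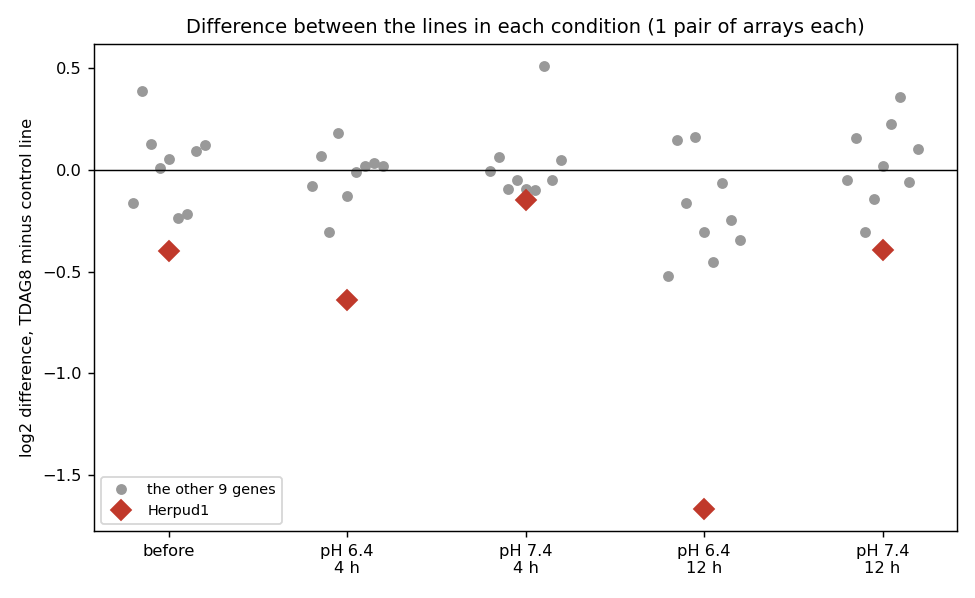
Log2 difference, TDAG8 minus control line, in each condition (1 pair of arrays each), with Herpud1 as red diamonds and the other 9 genes as grey points. Herpud1 is at -1.67 at pH 6.4 and 12 h, where 8 of the 10 genes are below 0.

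The interaction of pH and line asked whether acid acted differently on the genes when TDAG8 was present. The Herpud1 difference between pH 6.4 and pH 7.4 was more negative in TDAG8 cells at both times (interaction, log2 -0.89, SE 0.32, unadjusted p = 0.0397, limma adjusted p = 1). By limma 0 of the 10 genes and 0% of all tested genes passed, with an unadjusted p under 0.05 in 1 of the 10 and in 339 of all. This fit left 2 residual degrees of freedom, and the 95% interval for Herpud1 ran from -1.71 to -0.06. For Dnajb9 the interaction was -0.03, with an interval from -0.80 to 0.73, so a difference between the lines anywhere in that range remains possible.

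Without acid, no change over time passed the test in the 10 genes. Between the arrays before treatment and those at pH 7.4 and 4 h, 0 of 10 passed by limma and 0% of all genes, with an unadjusted p under 0.05 in 0 of the 10 and 566 of all. From 4 h to 12 h at pH 7.4, again 0 of 10 and 0% passed, with an unadjusted p under 0.05 in 0 of the 10 and 1278 of all. These comparisons share the pH 7.4 arrays with the acid comparisons.

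Other genes of the secretory pathway were read from lists, to be set against the 5.56% of all tested genes that were lower and the 4.46% that were higher over the 4 pairs. These lists were chosen with earlier results of these data known, and their calls were not followed through the alternative runs. Of 18 co-chaperones and folding enzymes 1 fell and 0 rose over the 4 pairs, with a list median of 0.06, where the median over all genes was 0.00. The one was Ero1a (-0.79, SE 0.15, limma adjusted p = 0.0377), the oxidase that recharges disulfide isomerases. Of 16 measured ERAD genes 3 fell and 0 rose, with a median of -0.08. These were Sel1l (-0.86, SE 0.12, limma adjusted p = 0.0207), the scaffold of the HRD1 ubiquitin ligase, Erlec1 (-0.76), a lectin of that complex, and Derl1 (-0.73), a channel component. Each of these was lower at pH 6.4 in 4 of 4 pairs, with Sel1l at -0.60 and -0.95 in TDAG8 cells and -0.94 and -0.93 in control cells (4 h and 12 h). At 4 h 4 of the 16 ERAD genes were lower by the test and 1 higher, Edem1 (0.37), against 11.5% and 6.19% of all. At 12 h 5 were lower and 2 higher, Ube2g2 (1.01) and Nploc4 (0.57), against 17.6% and 16.9% of all. Among 8 tested sensors and transcription factors Creb3l2, a membrane-bound factor of the ATF6 type, rose by 1.29 (SE 0.16, limma adjusted p = 0.0176) and 0 fell. At 12 h Atf6 (-1.07) and Mbtps1 (-0.88), which encodes the protease that cleaves ATF6, were also lower by the test. Of 13 translocon and signal peptidase genes 1 fell, Tram1 (-0.52), and of 10 vesicle export and retrieval genes 0 passed, with a median of 0.10. At 12 h 4 of those 10 were higher by the test, led by the KDEL receptor gene Kdelr3 (1.03), and 1 was lower, where 16.9% of all tested genes were higher and 17.6% lower.

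In the list of the PERK and ATF4 arm, 4 of 9 fell over the 4 pairs and 0 rose, with a median of -0.79, against 5.56% lower and 4.46% higher among all tested genes. This list was chosen with earlier results of these data known, so the contrast with all genes is only a description. Chac1, which encodes a glutathione-degrading enzyme (-2.00, SE 0.39, limma adjusted p = 0.0395), the pseudokinase gene Trib3 (-1.73), Atf4 itself (-1.20) and Sesn2 (-1.13) passed. Their differences by pair stood beside that of Herpud1 as follows. Atf4 had -1.52 and -1.66 in TDAG8 cells (4 h and 12 h), and -1.09 and -0.53 in control cells. Trib3 had -2.07 and -2.64 in TDAG8 cells, and -1.38 and -0.84 in control cells. Chac1 had -3.07 and -2.65 in TDAG8 cells, and -1.43 and -0.86 in control cells. For Atf4, Trib3 and Chac1, as for Herpud1, the difference was larger in TDAG8 than in control cells at each time. Sesn2 had -1.11 and -1.78 in TDAG8 cells, and -1.14 and -0.48 in control cells, so that at 4 h the lines were nearly equal. All 4 genes had their smallest difference in control cells at 12 h. The interaction of pH and line passed by limma for 0 of the 9 genes of the list. An unadjusted p under 0.05 was found in 3 of the 9 and in 339 of all 12162 tested genes. The CHOP gene Ddit3, which did not pass (-0.79, limma adjusted p = 0.104), had -0.97 and -1.60 in TDAG8 cells and -0.30 and -0.27 in control cells. Atf3 went the other way, with 1.46 and 0.06 in TDAG8 cells and 0.18 and 0.54 in control cells. Over the 4 pairs it had 0.56 and did not pass (limma adjusted p = 0.193). Asns (-0.25), Ppp1r15a (-0.19) and Ppp1r15b (-0.30) had smaller differences over the 4 pairs and did not pass. Of the cytosolic heat shock genes, which respond to unfolded proteins outside the endoplasmic reticulum, 2 of 7 rose (Hspa1a by 1.16 and Hspb1 by 0.95) and 1 fell (Dnajb1, -0.60), with a median of -0.04.

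**Figure D4:**
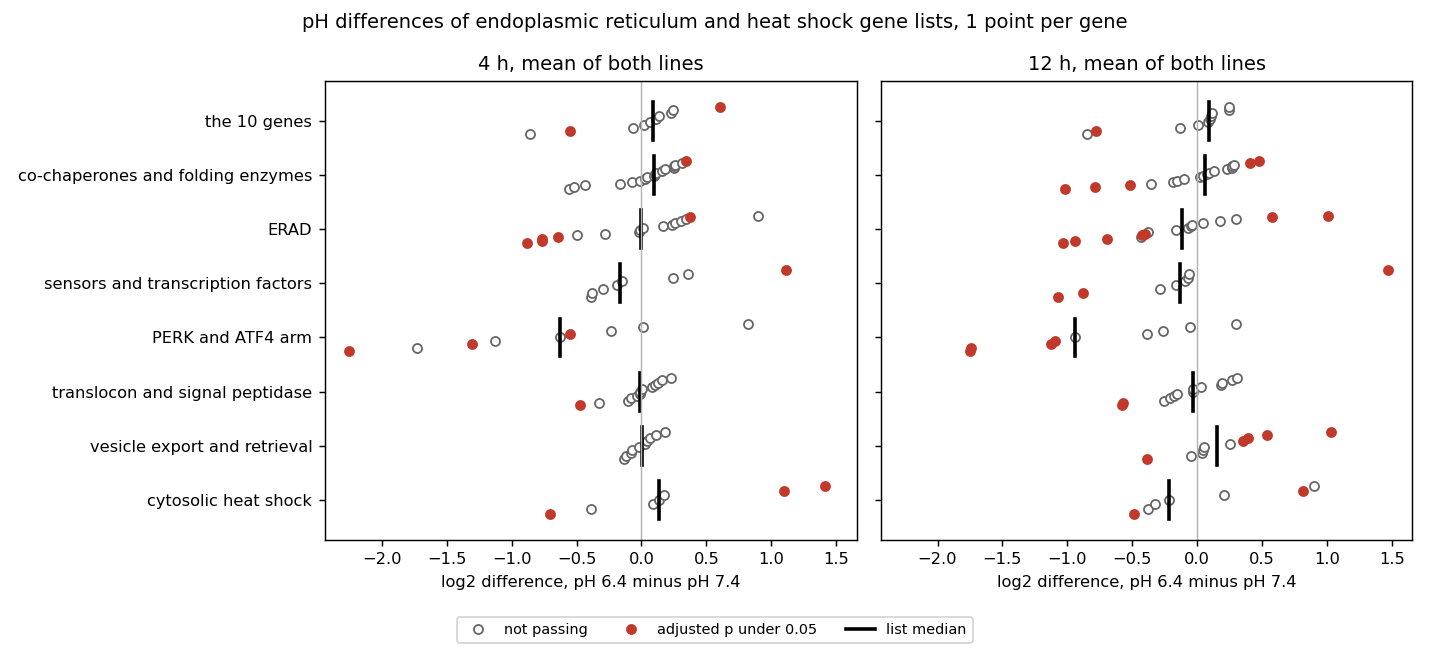
Log2 difference, pH 6.4 minus pH 7.4 (mean of both lines), at 4 h and 12 h for each tested gene of the lists, with filled red points for an adjusted p under 0.05, open points for the rest and a black bar for the list median. The 10 genes have medians of 0.09 and 0.09, and the PERK and ATF4 arm has medians of -0.63 and -0.94.

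The 10 genes did not vary as 1 group over the arrays. Of the 45 pairs of genes 25 had a Pearson correlation above 0 over the 10 arrays and 20 below, with a median of 0.03, given as a description of arrays that share conditions and normalisation. The highest was 0.75, for Dnajb9 with Herpud1, and the lowest -0.66, for Dnajb9 with Creld2. Pdia4, Creld2 and Manf correlated with each other at 0.68 to 0.71. The mean of the 10 standardised profiles was highest in control cells at pH 6.4 and 12 h (0.73) and lowest in TDAG8 cells at pH 6.4 and 12 h (-0.63). The genes most like this mean over the 10 arrays, by Pearson correlation, were Stim1 (0.95), which encodes the calcium sensor of the endoplasmic reticulum, Flicr (0.93), Gm6556 (0.92), 1700018L02Rik (0.88), Paip2 (0.88) and Arf5 (0.87).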

How the data were processed

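Affymetrix Mouse Genome 430 2.0 arrays had been hybridised with biotin-labelled cRNA from 10 pooled RNA samples. The deposited values are linear intensity, 1 signal for each probe set. In the deposited values the 2% trimmed mean was 100 on every array and array medians lay between 11.7 and 13.8, so the authors had scaled the arrays, and their summary software is not given in the sources used here. Of 45101 probe sets 34958 had 1 symbol in the platform annotation, 932 had several and 9211 had none or were controls, and 0 symbols needed updating. Here the arrays were quantile normalised, 2.4 (the 20th percentile of all values) was added, and log2 was taken. The probe set with the highest mean stood for a gene, and genes whose mean reached the 40th percentile of probe sets (log2 3.17) were tested.

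limma 3.58.1 in R 4.3.3 (lmFit, eBayes, Benjamini-Hochberg over all 12162 genes, adjusted p under 0.05) was run in 3 fits: pH in 4 pairs blocked by line and time (leaving 3 residual degrees of freedom), pH by line (2), and line plus condition over all 10 arrays (4). Single arrays were counted at 1 on the log2 scale without a test. Promoters were searched in Python 3.11.15. The fits were tested on simulated data. The 10 genes and the lists were chosen with earlier results of these data known. All 10 genes are named, and up to 4 passing genes of each list and comparison. The 6 genes most like the mean profile are named. Alternatives were other normalisations, filters, pseudocounts, probe set rules and variance models, and pairs left out, of which those for single times were added after seeing the data. The number of arrays limits the precision.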

Additional observations from a re-analysis of the deposited data

Results flagged for a closer look

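Between the lines, 2 genes had pH differences of opposite sign in every pair on the normalised scale. Xbp1 was higher at pH 6.4 in both TDAG8 pairs (0.14 and 0.27) and lower in both control pairs (-0.09 and -0.04), and the interaction was 0.27 (SE 0.27, limma adjusted p = 1). As deposited, the main Xbp1 probe set read slightly higher at pH 6.4 in control cells, so its opposite signs were not kept. It read 1427 against 1385 at 4 h and 1452 against 1434 at 12 h. The other 3 Xbp1 probe sets were also higher in both TDAG8 pairs, but none was lower in both control pairs (0.07 and -0.18, 0.19 and -0.05, and -0.12 and 0.06). Hyou1 was lower at pH 6.4 in both TDAG8 pairs (-0.11 and -0.21) and higher in both control pairs (0.38 and 0.22), with an interaction of -0.46 (SE 0.27, limma adjusted p = 1). Between the times, Hsp90b1 was higher at pH 6.4 in both 4 h pairs (0.07 and 0.07) and lower in both 12 h pairs (-0.14 and -0.13), and the difference of -0.20 (SE 0.16) did not pass (limma adjusted p = 0.448). The second Hsp90b1 probe set gave 0.20 and 0.10 at 4 h and -0.04 and 0.00 at 12 h, and after median centring the 12 h value of Hsp90b1, acid at 12 h, was 0.03, so the opposite signs were not kept. For Hyou1 the other 2 probe sets were also higher at pH 6.4 in both control pairs, but 1 of them was higher in both TDAG8 pairs as well (0.18 and 0.19).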

How the results depend on the processing

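The number of the 10 genes that passed was 1 for pH over 4 pairs, against 0 after median centring, 0 if unfiltered, 2 under the stricter filter (60th percentile), 2 under the trend and robust options, 2 once pH by time entered the model, and 0 without any 1 pair. At 4 h it was 2, against 1 after median centring, 0 if unfiltered and 0 without either pair. At 12 h it was 1, and 0 to 1 without a pair (without the control pair Herpud1 passed, at -1.48, and Dnajb9 did not). From 4 h to 12 h in acid it was 1, against 0 after median centring and 0 without either pair. The cause of these changes was not tested, except that leaving out a pair removes samples. With a limit of 0.58 in place of 1, 8 of the 40 single array differences between pH 6.4 and pH 7.4 counted, against 2. In the comparisons of the lines, pH by line, pH by time and at pH 7.4, 0 of the 10 passed under every alternative run. Among the 10 genes none that passed changed sign. Of 990 recomputed values of the 10 genes 4 newly passed and 18 no longer passed. Genes of the other lists were not followed through these runs. Centring on the median moved the median of all genes to 0.12 at 12 h, 0.15 for 12 h against 4 h in acid and 0.22 for the change in pH response. The labels carry no replicate numbers, so none could serve as a block. The pairs were matched by line and time, which the main test over 4 pairs used. Pooling removed the spread between cultures, and probe sets near background limit what the second Pdia4 probe set shows.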

Other observations

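Genes of the sensing machinery, from the same lists chosen with earlier results known, moved between 4 h and 12 h at pH 6.4. Of 8 tested sensors and transcription factors 4 fell over both lines and 0 rose, where 12.2% of all genes were lower, with a list median of -0.15 against 0.03 over all genes. They were Mbtps1 (-0.68), Atf6b (-0.63), the PERK gene Eif2ak3 (-0.40) and Atf6 (-0.39), each by limma with an adjusted p under 0.05. The other 4 had higher values at 12 h that did not pass: the IRE1 gene Ern1 (0.33), Creb3l2 (0.27), Mbtps2 (0.26) and Creb3 (0.09). In the same comparison 1818 of all 12162 tested genes were higher. Of 10 vesicle export and retrieval genes 2 rose and 0 fell. Kdelr3, which encodes a receptor that returns lumenal proteins to the endoplasmic reticulum, rose by 1.11, and the COPII coat gene Sec24d rose by 0.44. Of 16 tested ERAD genes 2 rose, Edem3 (0.83) and Derl2 (0.46), and 2 fell, Ufd1 (-0.65) and Os9 (-0.43), which is close to the general share.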
